A study of Mus musculus with 2 samples.

Results

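The genes described here are 10 core genes of the step from G1 into S phase of the cell cycle, chosen by name: the D-type cyclins Ccnd1, Ccnd2 and Ccnd3, their kinases Cdk4 and Cdk6, the E-type cyclins Ccne1 and Ccne2, and the E2F transcription factors E2f1, E2f2 and E2f3. Every probe set with 1 of these symbols as its only gene symbol was taken, which gave 29 of 45101 probe sets, for 10 of 18193 named genes. Their transcripts were measured in T helper 2 (Th2) cells, CD4 T cells steered by interleukin-4, from Ecm1 knockout (KO) mice and from wild-type (WT) mice. Both groups were C57BL/6, described as female and 6 weeks old, and both had splenic CD4 cells, isolated with magnetic beads, held in culture for 4 days. The culture had 3 µg/ml of anti-CD3 bound to the plate and 2 µg/ml of soluble anti-CD28 as stimulus, 10 ng/ml of IL-4 (the label's unit is misspelt) and, to block other fates, 10 µg/ml each of antibodies to IFN-γ and IL-12. Cells were selected on CD4 alone, although the series' text speaks of naive cells. Each group had 1 Affymetrix array, so no difference below carries a p-value or a replicate SD. How many animals gave RNA for an array, and which allele removes Ecm1, is not stated in the labels.

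A resting T cell enters the cell cycle when signals from its antigen receptor, costimulation and cytokines raise D-type cyclins, which bind CDK4 or CDK6 and start to phosphorylate the retinoblastoma protein RB. Phosphorylated RB releases E2F factors, which then turn on genes for DNA replication and also the genes of cyclin E and of E2F factors themselves. Cyclin E with CDK2 completes the phosphorylation of RB, a loop that carries the cell into S phase. Lymphocytes chiefly use cyclins D2 and D3 with CDK6, whereas cyclin D1 is the main D-type cyclin of many other tissues.

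Of these genes, the E-type cyclins were the ones past 2-fold, and both were higher in KO cells. Ccne2 was 3.33-fold and Ccne1 2.19-fold higher after centring of the arrays on each other. Ccnd2, E2f1 and E2f3 were higher by less than 2-fold, Ccnd3 was lower, and Cdk4, Cdk6 and E2f2 lay close to 0. The count was 2 of 10 genes higher by 2-fold or more and 0 of 10 lower by that much, on arrays where 7.15% and 4.45% of the 10144 genes measured on both were past those limits. At a limit of 1.5-fold the counts were 4 of 10 higher (Ccnd1, Ccne1, Ccne2 and E2f3) and 1 of 10 lower (Ccnd3), against 18.3% and 13.6% of all genes. Ccnd1 had signals close to background, and its probe sets give no common direction.

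RefSeq promoter windows of 300 bases, running from 250 before to 50 after an annotated start (build GRCm38.p6), were found for 7 of the 10 genes, 10 windows in all. They are shown for 4 genes because these stand at different places in the results: Ccne1 and E2f3 were higher in KO cells, E2f2 and Cdk4 were close to 0. Capitals mark E2F words (TTTCCCGC, TTTGGCGC, TTTCGCGC or TTTGCCGC on either strand) and the E-box CACGTG, a palindrome bound by MYC and related factors.
Ccne1, chr7:38107441-38107740, minus strand: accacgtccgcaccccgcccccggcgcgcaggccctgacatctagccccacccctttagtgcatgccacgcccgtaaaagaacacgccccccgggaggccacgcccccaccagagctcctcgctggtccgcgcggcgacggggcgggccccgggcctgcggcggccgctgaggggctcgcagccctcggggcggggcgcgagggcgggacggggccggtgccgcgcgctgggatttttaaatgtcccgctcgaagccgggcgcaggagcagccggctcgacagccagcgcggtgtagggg
E2f3, chr13:29986014-29986313, minus strand: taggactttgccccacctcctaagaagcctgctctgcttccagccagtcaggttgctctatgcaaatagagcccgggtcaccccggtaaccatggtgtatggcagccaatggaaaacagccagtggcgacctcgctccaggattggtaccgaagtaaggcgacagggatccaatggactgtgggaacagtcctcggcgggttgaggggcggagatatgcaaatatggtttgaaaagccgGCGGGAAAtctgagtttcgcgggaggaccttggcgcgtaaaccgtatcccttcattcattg
E2f2, chr4:136172024-136172323, plus strand: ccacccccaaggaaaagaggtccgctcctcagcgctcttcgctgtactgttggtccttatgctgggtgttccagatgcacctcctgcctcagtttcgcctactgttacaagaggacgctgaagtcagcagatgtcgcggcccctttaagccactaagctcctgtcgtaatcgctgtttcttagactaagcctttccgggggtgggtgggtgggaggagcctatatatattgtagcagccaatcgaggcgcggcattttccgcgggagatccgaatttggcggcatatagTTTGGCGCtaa
Cdk4, chr10:127063285-127063584, plus strand: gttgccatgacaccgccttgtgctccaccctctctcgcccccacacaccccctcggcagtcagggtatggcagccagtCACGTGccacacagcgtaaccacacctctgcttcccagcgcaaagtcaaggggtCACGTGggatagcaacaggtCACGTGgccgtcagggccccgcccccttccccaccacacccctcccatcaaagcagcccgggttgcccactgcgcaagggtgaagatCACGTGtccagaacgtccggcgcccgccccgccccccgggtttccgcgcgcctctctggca
An E2F word lay in 2 of the 10 windows, those printed for E2f3 (GCGGGAAA, 11 bases before the start) and E2f2 (TTTGGCGC, 39 bases after it), and in 2.26% of all 32851 windows in the table. The E2f1 window, counted among the 10 and without an E2F word, looks like coding sequence of the gene's first exon. It was not printed for that reason and gives no reading of the E2f1 promoter. The E2F words and the E-box do not overlap in these windows. The Cdk4 window held 4 copies of CACGTG; 8 of the 32851 windows held 4 or more, and 7.15% held at least 1. Other windows with an E-box were that of Cdk6, with 1 copy, and a further E2f3 window, with 1 copy. These matches are descriptions of the letters, and E2f2 and E2f3, the genes with an E2F word, had log2 differences of -0.17 and 0.68.

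On each array the median signal (65.5 in KO, 69.2 in WT) was taken as the floor, under which a signal counts as background. Differences are log2 signal in KO minus log2 signal in WT, centred on the median of all probe sets that reached the floor on both. The brightest probe set stands for a gene unless another is named. Signals of different probe sets are not comparable in level, so only differences between arrays are set side by side. The sole internal error measure was the spread between the 2 brightest probe sets of the same gene, a technical SD of 0.36 on the log2 scale over 4657 genes. That SD leaves out variation between animals, cultures and arrays.

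Ecm1 itself read 19.3 in KO cells, under the floor, and 29114.7 in WT cells. The lists of cell markers also differed between the arrays. The 8 measured T cell markers summed to a signal of 49035.6 in KO and 92839.9 in WT, with all 8 below 0 and 4 at least 2-fold lower. Markers of CD8 T and NK cells summed to 1659.2 in KO and 3858.4 in WT, with 5 of 7 measured at least 2-fold lower. Th2 markers summed to 14408.8 in KO and 21335.1 in WT. Of the 7 measured, 1 was at least 2-fold higher, the cytokine gene Il13 (1.89). Il13 read 240.6 in KO and 69.6 in WT, where the floor was 69.2. The Th2 markers with a higher mean signal were Maf (-0.73), Gata3 (-0.21), Il4 (-0.31) and Ccr8 (0.56). The 9 B cell markers on the array summed to 34660.1 in KO and 17158.3 in WT, with 3 of 8 measured at least 2-fold higher. Plasma cell markers summed to 98859.3 in KO and 44559.2 in WT, with 6 of 8 at least 2-fold higher, and macrophage markers to 4184.6 in KO and 1045.4 in WT, with 2 of 8 measured at least 2-fold higher. Counted in the same way, by value or bound, 7.37% of all genes were past 2-fold on the higher side and 4.45% on the lower. The sums are of uncentred signals and follow the brightest probe sets. Among the macrophage markers, Lyz2 alone read 2796.2 in KO and 275.5 in WT, while the list's median, by value or bound, was 0.54. That median takes 3 lower bounds as values. Over the 5 macrophage markers measured on both arrays the median was 0.97. The B cell factor Pax5 was below the floor on both arrays, and so were all 5 hepatocyte markers, although the sample descriptions name liver. Dividing cells of these types express the same cyclins, and the part of these marker differences in the results below was not tested. In bulk RNA, fewer cells of a type and less RNA per cell cannot be told apart.

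**Figure D1:**
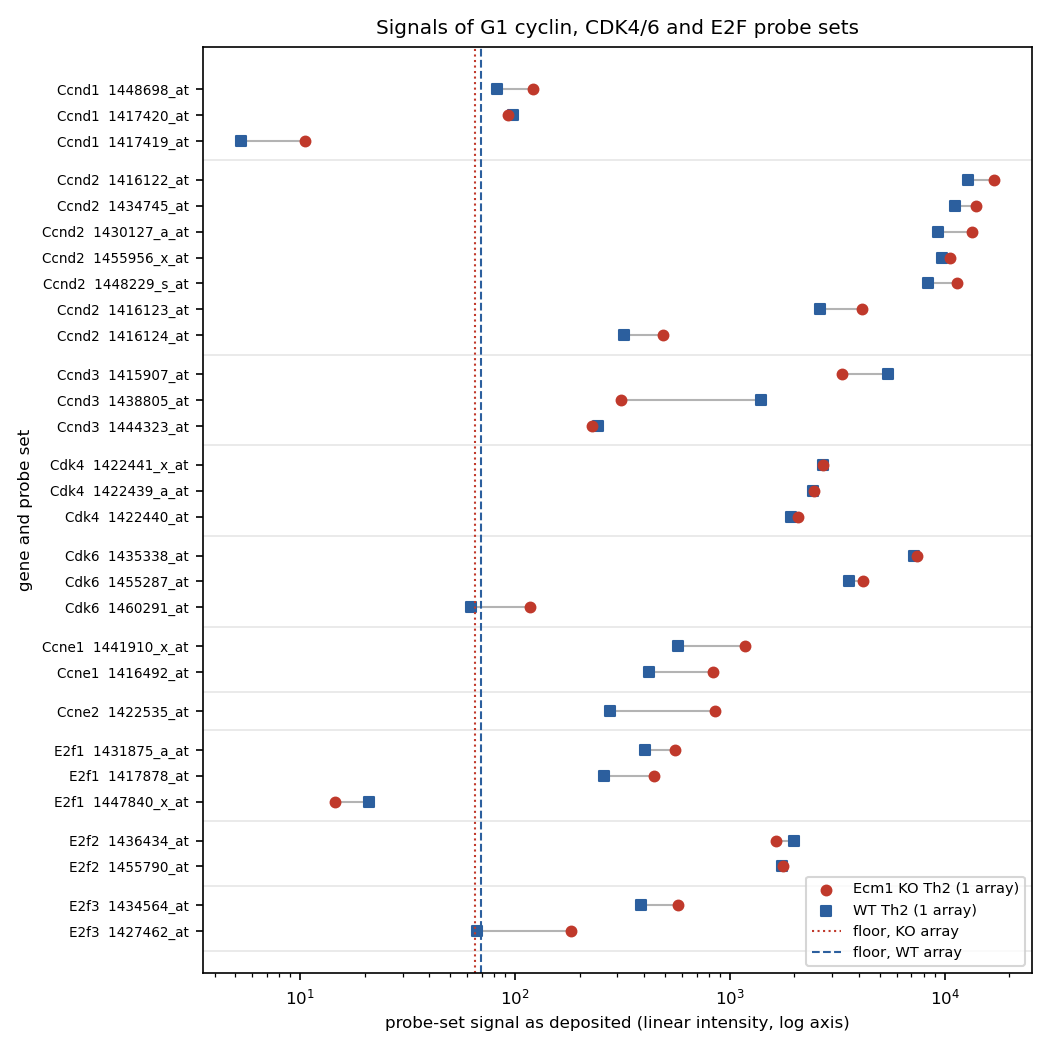
Deposited signal of each of the 29 probe sets (log axis, linear intensity) on the Ecm1 KO array (red circles) and the WT array (blue squares), with each array's floor as a vertical line. The Ccne1 and Ccne2 pairs and the Ccnd3 probe set 1438805_at show the widest gaps among probe sets that reached both floors, and the Cdk4 pairs nearly coincide.

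The 3 D-type cyclins did not move together. Ccnd2, the cyclin that growth factor and cytokine signals induce in lymphocytes, was higher in KO cells by every probe set. Its brightest, 1416122_at, read 17020.9 in KO and 12807.5 in WT, a log2 difference of 0.51. The other 6 probe sets of Ccnd2 read between 489.9 and 13954.6 in KO and between 321.1 and 11174.3 in WT. All 7 lay above 0, with log2 differences between 0.21 and 0.76, a median of 0.55 and an SD of 0.19 between probe sets. The size was modest, since 2164 of the 10144 measured genes (21.3%) had a difference at least as high as that of the brightest Ccnd2 probe set.

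Ccnd3, the D-type cyclin needed for the expansion of immature T cells and of germinal centre B cells, went the other way. Its brightest probe set, 1415907_at, read 3330.1 in KO and 5476.6 in WT, a log2 difference of -0.61, or 1.53-fold lower. Probe set 1438805_at read 311.0 in KO and 1398.6 in WT, a log2 difference of -2.07, or 4.19-fold lower. The third, 1444323_at, read 229.6 in KO and 244.3 in WT, a difference of 0.01. The probe sets of Ccnd3 thus disagreed in size, with 1 within 2-fold and lower, 1 past 2-fold and lower and 1 without a difference. Of 10144 genes, 12.7% had a difference at least as low as the brightest Ccnd3 probe set.

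The gap between Ccnd2 and Ccnd3 was 1.13 on the log2 scale, a quantity that centring does not touch. It was 2.22 times the technical SD of such a difference between genes (0.51). That SD is pooled over many genes, whereas the probe sets of Ccnd3 had an SD of 1.07 between them. Ccnd1, the cyclin of most non-lymphoid cells, was close to the floor on both arrays. Its brightest probe set, 1448698_at, read 120.9 in KO and 82.7 in WT (0.65). Its next, 1417420_at, read 92.7 in KO and 97.8 in WT (0.03), and 1417419_at read 10.5 in KO and 5.3 in WT, below the floor on both arrays. At these signals the probe sets give no common direction for Ccnd1.

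The kinases that D-type cyclins activate had nearly equal signals on the arrays. Cdk4 read 2726.9 in KO and 2707.6 in WT with probe set 1422441_x_at, a log2 difference of 0.11. Its other probe sets, 1422439_a_at and 1422440_at, read 2457.0 and 2076.8 in KO, against 2436.0 and 1936.9 in WT, with differences of 0.12 and 0.20. These 3 values span 0.09, the narrowest span among the genes with several measured probe sets here other than Ccne1, whose 2 probe sets span 0.04.

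Cdk6, the kinase partner most used in T cells, read 7408.1 in KO and 7204.7 in WT with 1435338_at (0.14). Probe set 1455287_at read 4151.5 in KO and 3594.6 in WT (0.31). The dim 1460291_at read 118.1 in KO and 62.7 in WT, under the floor there, which leaves a bound of 0.87 or higher. The bright probe sets of both kinases lay within 1 technical SD of 0. Their sign depends on the scaling: Cdk4 was at -0.04 when centred on hybridisation controls, and Cdk6 was at -0.04 after quantile normalization. With every probe set averaged, which takes in the signal below the floor, Cdk6 was at 0.49, more than 1 technical SD from 0.

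**Figure D2:**
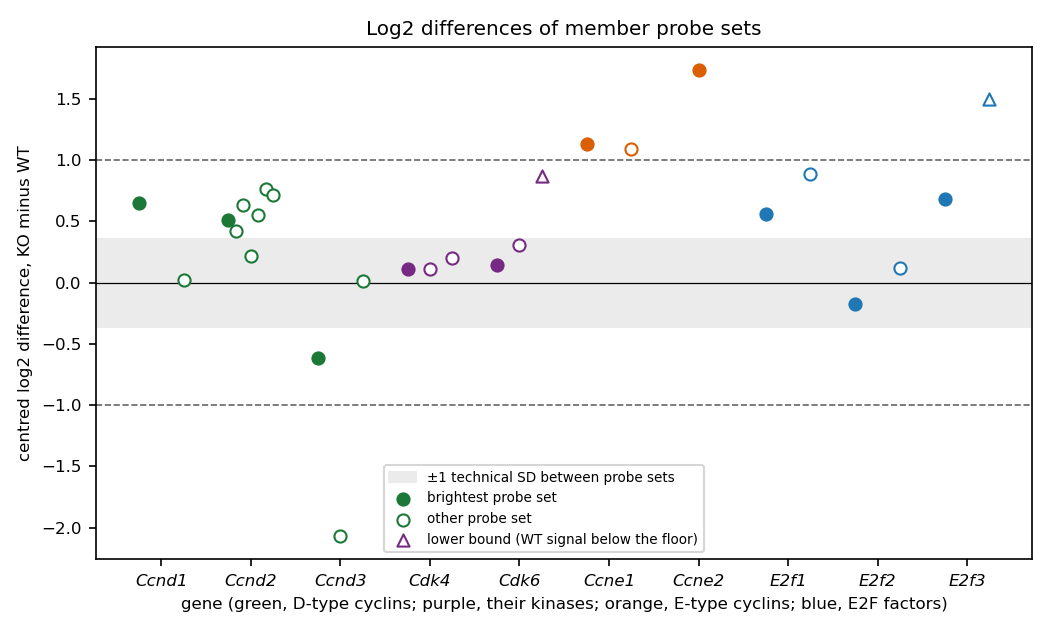
Centred log2 difference, KO minus WT, of each member probe set, by gene, with filled circles for the brightest probe set, open circles for the others and triangles for lower bounds. The grey band is ±1 technical SD (0.36) and dashed lines mark 2-fold. The 7 Ccnd2 probe sets lie together between 0.21 and 0.76, while those of Ccnd3 run from -2.07 to 0.01.

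The E-type cyclins, which bind CDK2 at the end of G1, showed the largest differences among the 10 genes. Ccne2 has 1 probe set, 1422535_at, which read 855.3 in KO and 276.1 in WT, well over the floor on both arrays. Its log2 difference was 1.73, and 169 of the 10144 genes (1.67%) had one at least as high. With a single probe set, Ccne2 has no second reading on the array.

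Ccne1 has that second reading. Probe set 1441910_x_at read 1173.4 in KO and 575.6 in WT, a log2 difference of 1.13. Probe set 1416492_at read 831.2 in KO and 419.9 in WT, a difference of 1.09. Both were past 2-fold after centring and stood 0.04 apart. Of the 10144 genes, 5.52% had a difference at least as high as the brighter one.

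The limit of 2-fold is close for Ccne1, which was at 1.03 without centring and at 0.98, just under 2-fold, when centred on hybridisation controls, a scale on which 5.24% of all genes were 2-fold higher. Set against Cdk4, which centring moves equally, Ccne1 was higher by 1.02 and Ccne2 by 1.62 on the log2 scale. These gaps were 2.00 and 3.18 times the technical SD of a difference between genes. Against Ccnd3 the gaps were wider, at 1.75 for Ccne1 and 2.35 for Ccne2. The gap between Ccne2 and Ccne1 was 0.60, or 1.19 times that SD.

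Among the E2F factors that activate transcription, E2f1 and E2f3 were higher in KO cells by less than 2-fold and E2f2 was not. E2f1, the first-described member and itself an E2F target, read 556.5 in KO and 404.0 in WT with 1431875_a_at (0.56). Its probe set 1417878_at read 445.3 in KO and 258.7 in WT (0.89), and 1447840_x_at was below the floor on both arrays, at 14.6 in KO and 20.9 in WT. Both measured readings of E2f1 were thus above 0 and outside the band of 1 technical SD. With every probe set averaged, which takes in the signals below the floor, E2f1 was at 0.35, inside that band.

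E2f3, which mouse cells need for normal proliferation, read 574.3 in KO and 384.7 in WT with 1434564_at, a log2 difference of 0.68. Its dimmer probe set 1427462_at read 182.6 in KO and 66.6 in WT, under the floor there, so its difference is a bound of 1.503 or higher. With both probe sets averaged, which takes in that signal below the floor, E2f3 stood at 1.12, past 2-fold. Centred on the poly-A spike-ins it stood at 1.01.

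E2f2, whose loss in mice lowers the threshold for T cell proliferation, read 1639.8 in KO and 1982.7 in WT with 1436434_at (-0.17). Its probe set 1455790_at read 1770.6 in KO and 1754.2 in WT (0.12). The readings of E2f2 lie on either side of 0 and within 1 technical SD of it, and the brighter one was at 0.16 when centred on the poly-A spike-ins. E2f3 stood 0.85 and E2f1 0.74 above E2f2 on the log2 scale, or 1.67 and 1.45 times the technical SD of a difference between genes.

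**Figure D3:**
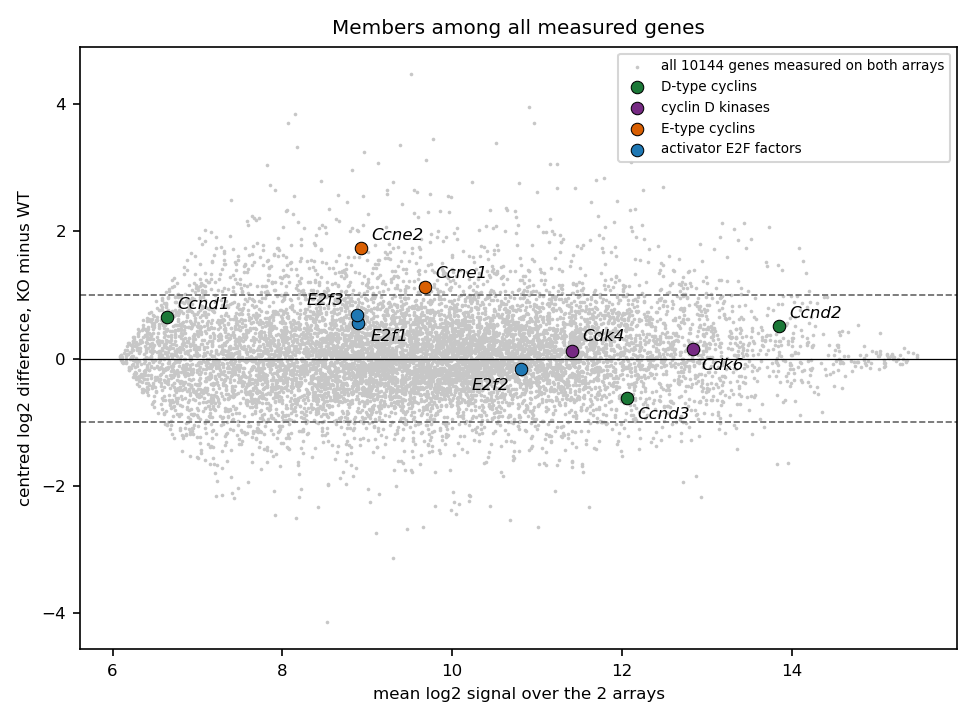
Centred log2 difference, KO minus WT, against mean log2 signal for the 10144 genes that reached the floor on both arrays (grey), with the 10 genes coloured by role and dashed lines at 2-fold. Ccne2 and Ccne1 lie above the upper line, Ccnd3 and E2f2 lie below 0, and Ccnd1 lies at the dim end.

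Over all 10 genes, 8 lay above 0 and 2 below, and the median was 0.54 on the log2 scale. All 10144 genes had a median of 0.04, and 53.1% of them lay above 0. At the level of probe sets, 25 of the 29 reached the floor on both arrays, 2 on the KO array alone and 2 on neither. Of the 25, 3 were higher by 2-fold or more (the 2 of Ccne1 and that of Ccne2) and 1 was lower by that much (of Ccnd3), against 7.22% and 4.68% of the 17951 named probe sets measured on both arrays. Their median was 0.42, beside 0.03 for all named probe sets. All 10 genes were measured on both arrays, so none of these counts rests on a gene seen on 1 array.

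Genes that work with these 10 were described from lists put together with earlier results of these arrays known. Of the 5 other E2F factors, the atypical repressors E2f7 and E2f8, which are themselves E2F targets, were at least 2-fold higher in KO cells, as were 7.15% of all genes measured on both arrays. E2f8 read 1521.1 in KO and 720.8 in WT (1.18), and E2f7 read 521.3 in KO and 265.0 in WT (1.08). The repressors E2f4, E2f5 and E2f6 were at 0.00, -0.15 and 0.07 in their brightest probe sets. A dimmer probe set read 180.4 in KO and 46.7 in WT for E2f5, under the floor in WT. For E2f6 one read 95.7 in KO and 47.1 in WT, also under the floor in WT. With probe sets averaged, 4 of the 5 were measured on both arrays and 1 was 2-fold higher, against 6.91% of all genes. The list's median was then 0.55, in place of 0.07. E2f8 dropped out there, since its other probe set read 2.5 on both arrays. E2f8 and E2f4 stood 1.18 apart, 2.31 times the technical SD of a difference. E2f7 was at 0.98 without centring, which leaves 1 of the 5 past 2-fold, against 5.79% of all genes on that scale.

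The partners with which E2F factors bind DNA were on opposite sides of 0. Tfdp1 read 3300.2 in KO and 2151.8 in WT (0.72), and Tfdp2 read 471.5 in KO and 820.0 in WT (-0.70). The 4 probe sets of Tfdp2 ran from -0.70 to -0.13, with a median of -0.37. Among the pocket proteins that hold E2F factors in check, Rbl2, the one most abundant in resting cells, read 2298.0 in KO and 4554.8 in WT (-0.88). Rb1 was at 0.35 and Rbl1, which is present mainly in cycling cells, at 0.14. None of these 5 genes was past 2-fold in its brightest probe set, although the other probe set of Rbl2 was at -1.05. Rbl2 was past 2-fold when centred on hybridisation controls (-1.04), and Tfdp1 when centred on the poly-A spike-ins (1.05).

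CDK2, the kinase that cyclin E activates, did not differ in step with the cyclin: Cdk2 read 1147.9 in KO and 1236.1 in WT (0.00). Cdc25a, the phosphatase that removes its inhibitory phosphates, was at 0.65, and the subunits of the CDK-activating kinase Cdk7, Ccnh and Mnat1 were at 0.37, -0.02 and 0.14. None of these 5 was past 2-fold in its brightest probe set. A second probe set of Cdc25a was at 1.14, and the third was below the floor on both arrays, at 24.9 in KO and 4.2 in WT. With the log2 signals of all 3 averaged, Cdc25a was at 1.49 and past 2-fold. Another list held 9 genes for the ubiquitin ligases that destroy G1 cyclins and their inhibitors. Of these, 1 was past 2-fold in its brightest probe set, where 7.15% of all genes were that much higher. This gene, Skp2, marks the inhibitor p27 for breakdown. Skp2 read 577.4 in KO and 296.6 in WT (1.06). It was under 2-fold without centring, centred on hybridisation controls, with probe sets averaged and, as a bound, with the floor at the 70th percentile. Its cofactor Cks1b was at 0.86, with 1.39 in its other probe set and 1.13, past 2-fold, with the 2 averaged. Fbxw7, the ligase subunit that recognises cyclin E, was at 0.10.

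The CDK inhibitors were split. Of 7, 3 were higher by 2-fold or more and 0 lower by that much, where 7.37% and 4.45% of the 11265 genes measured on 1 or both arrays were past those limits by value or bound. Cdkn1a, which encodes p21, read 5359.5 in KO and 1665.6 in WT (1.79), and Cdkn2b, an inhibitor of CDK4 and CDK6, read 358.9 in KO and 127.0 in WT (1.60). Cdkn2a read 788.6 in KO and 35.5 in WT, below the floor, a bound of 3.61 or higher. Cdkn1b, which encodes p27, the inhibitor that resting T cells carry, read 4281.5 in KO and 7798.6 in WT (-0.76), and Cdkn2d was at -0.65.

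**Figure D4:**
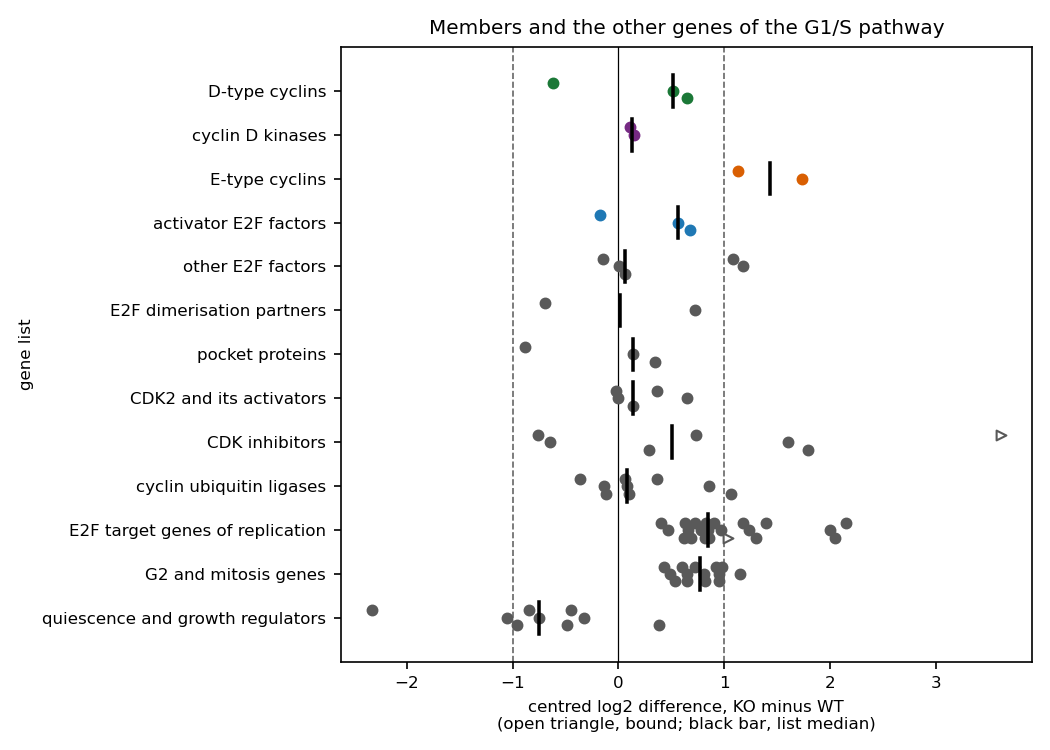
Centred log2 difference, KO minus WT, of each gene of the lists, with the 10 genes in colour, the other lists in grey, a black bar at each list's median over genes measured on both arrays and open triangles for bounds. E2F target genes of replication and G2 and mitosis genes all lie above 0, between 0.40 and 2.15, whereas most quiescence and growth regulators lie below it.

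Genes of DNA replication that E2F factors are known to control were higher in KO cells as a list. Of 24, 21 were measured on both arrays, and all 21 lay above 0, with a median of 0.85. Of these, 7 were higher by 2-fold or more and 0 lower by that much, against 7.15% and 4.45% of all genes measured on both arrays. Tyms, the gene of thymidylate synthase, read 132.3 in KO and 60.4 in WT, below the floor, a bound of 1.04 or higher. The origin-licensing genes Orc1 and Cdc6 read 391.4 and 1767.1 in KO, against 94.5 and 474.0 in WT, with differences of 2.15 and 2.00. Cdc45 (2.05, with -0.47 in its other probe set), Mcm5 (1.39), Mcm10 (1.30) and the ribonucleotide reductase subunit Rrm2 (1.24) followed. With all probe sets of a gene averaged, 16 of the 19 then measured on both arrays lay above 0 and 5 were at least 2-fold higher, against 6.91% of all genes. Centred on the poly-A spike-ins 16 of the 21 were that much higher, against 15.2% of all genes.

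Genes of G2 and mitosis, which act later than the G1 cyclins, had a median of 0.77, with all 14 measured above 0 (12 of 13 with probe sets averaged). Of the 14, 1 was at least 2-fold higher, against 7.15% of all genes. That count was 0 when centred on hybridisation controls, where 5.24% of all genes were that much higher, and 8 on the poly-A spike-ins, where 15.2% were. It was also 0, of 12 measured, with the floor at the 70th percentile, against 5.65% of all genes. With probe sets averaged it was 2 of 13, against 6.91%. Leaving out probe sets ending in _x_at or _s_at, which can match several transcripts, also gave 2 of 13, against 7.29%. The 1 gene was Mybl2 (1.15), itself an E2F target, followed by Cdk1 (0.98), Cdc20 and Bub1 (0.95 each), Foxm1 (0.92) and the proliferation marker Mki67 (0.82). Ccne2 was thus higher than every gene of this list, and Ccne1 lay just under Mybl2. The brightest probe sets of E2f1, E2f3 and Ccnd2 were at or below 0.68, under the medians of both lists.

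Regulators that hold T cells at rest or drive their growth upstream of the D-type cyclins were mostly lower. Of 9 measured on both arrays, 2 were lower by 2-fold or more and 0 higher by that much, against 4.45% and 7.15% of all genes, and the median of the 9 was -0.75. The brightest probe set of Mycn, at 21.4 in KO and 69.2 in WT, reached the floor in WT alone and gives no difference. Another read 67.1 in KO and 7.0 in WT, the opposite order. Klf2, which keeps T cells quiescent, was at -2.33, and Stat5b, which transmits cytokine signals to Ccnd2, at -1.06 with 0.17 in its other probe set. Tob1 (-0.96), Foxo3 (-0.84), Foxp1 (-0.75) and Foxo1 (-0.45), also linked to quiescence, stood beside them. Klf4 was the 1 gene of the 9 above 0, at 0.38 with -0.42 in its other probe set. Centred on the poly-A spike-ins, 1 of 9 genes of this list was at least 2-fold lower, against 1.76% of all genes. With probe sets averaged 1 of 8 was, against 4.41%. Without centring 3 of 9 were, against 6.02%, Tob1 being the added gene. The same 3 were when centred on hybridisation controls and with loess, against 6.84% and 4.75%. With no floor 3 of 10 were, against 12.7% of all genes, Mycn being the added gene (-1.61). Myc, a driver of growth and of Ccnd2 and Cdk4, read 1510.1 in KO and 2031.0 in WT (-0.32).

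**Figure D5:**
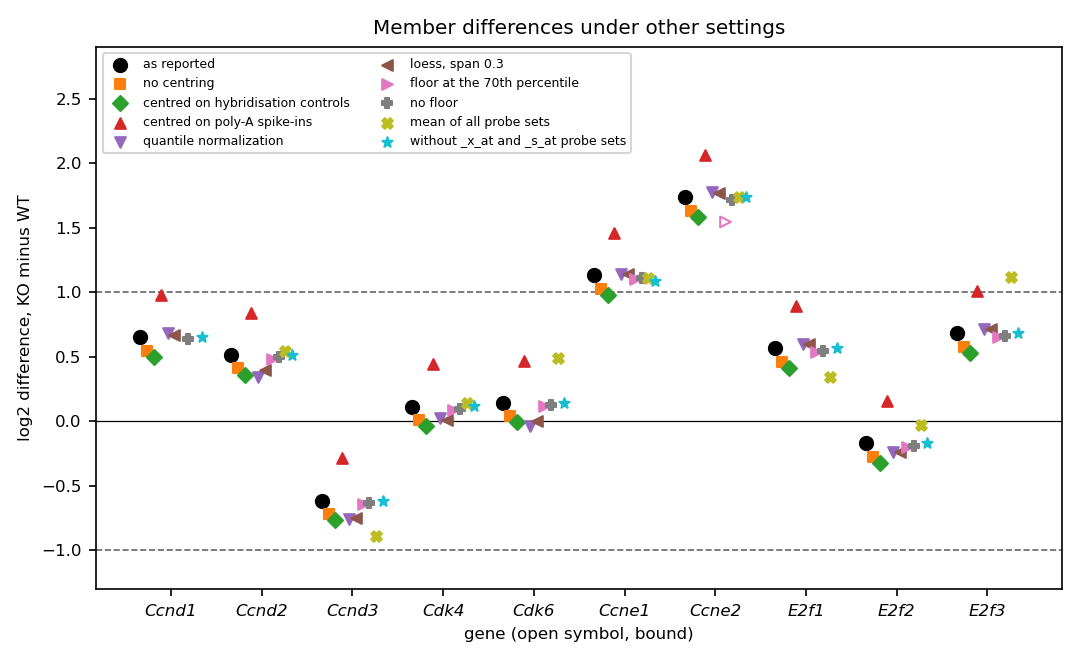
Log2 difference, KO minus WT, of each of the 10 genes as reported (black circles) and under 9 other settings of scaling, floor and probe-set summary, with dashed lines at 2-fold. Open symbols are bounds. Ccne2 stays above the upper line in all, between 1.58 and 2.06 where both arrays reached the floor and, where the floor was set at the 70th percentile, at a bound of 1.54 or higher, Ccnd3 stays below 0, and Cdk4, Cdk6 and E2f2 lie on both sides of 0.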

How the data were processed

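Per the labels' protocols, biotin-labelled cRNA was made from 3 µg of total RNA with the one-cycle Affymetrix assay. The deposited values are linear signal intensities, 1 per probe set and array, and nothing in the labels names the software that summarised them. With the extremes trimmed to the central 96%, both arrays averaged 499.8, but their 75th percentiles differed (423.4 in KO, 456.2 in WT), so the arrays share a scaling but were not quantile normalized. GEO's platform annotation named the probe sets; 34945 had 1 symbol, 932 several and 9160 none, 64 were controls, and no probe set with several symbols held a member. The log2 difference was centred by subtracting its median (-0.10) over the 20834 probe sets that reached both floors. Where 1 array was below its floor, a bound is given. With 1 array per group no test was run, and their number limits the precision. Genes at least 2-fold apart were counted.

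The members and lists were chosen with earlier results of these data known. All members are named with every probe set; of lists with up to 10 genes any gene may be named, of longer lists the 6 with the largest difference, and of marker lists those with the highest signal. With 2 arrays, no likeness of pattern between genes could be measured. Some listed genes without a probe set of their own were not analysed here. Pax5 was named after its values were seen, and Il13 and Tyms were also named outside these rules. The steps were tested on simulated data. Python 3.11.15, pandas 2.3.3, numpy 2.4.6 and statsmodels 0.14.6 were used. Alternatives were other centrings, quantile normalization, loess (span 0.3), other floors, other probe-set summaries and a 1.5-fold limit.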

Additional observations from a re-analysis of the deposited data

How the results depend on the processing

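No paired analysis was possible because a single array stood for each genotype. Of the 10 genes' values, 88 could be recomputed under 9 alternatives, and 87 moved by less than the technical SD. The exception was E2f3, at 1.12 with probe sets averaged. Many of these values could not have moved that far. The other centrings shift every gene alike, by -0.10, -0.15 or 0.33, each less than that SD. A change of floor keeps the same probe set for a gene. The count of 87 is therefore no measure of how firm the values are. Ccnd1 had no value with the floor at the 70th percentile or with probe sets averaged, where neither array reached the floor. The count of 2 genes at least 2-fold higher was 1 (Ccne2) when centred on hybridisation controls, on a scale where 5.24% of all genes were that high, and with a 1.5-fold limit it was 4 higher and 1 lower, against 18.3% and 13.6% of all genes. The median of the 10 genes, 0.54, was 0.39 when centred on hybridisation controls and 0.87 on poly-A spike-ins. Those centrings moved the median of all genes to -0.11 and 0.37. The members' median stood 0.50 above it under each, which is fixed because centring moves all genes alike. It stood 0.44 above with quantile normalization, 0.47 with loess and 0.46 with probe sets averaged. Of all genes past 2-fold, 61.6% were higher in KO as reported, against 49.0% without centring, 43.4% and 89.6% on the hybridisation and spike-in controls. The counts of all genes at least 2-fold higher and lower, 725 and 451, became 2818 and 2316 with no floor, 416 and 285 with the floor at the 70th percentile, 1538 and 179 centred on spike-ins, 532 and 694 on hybridisation controls, and 1852 and 1382 at 1.5-fold. Low signal over background limits Ccnd1 most.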

Other observations

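The disagreement among the Ccnd3 probe sets was wide for these arrays. Their log2 differences span 2.08, and among 1935 genes with at least 3 probe sets measured on both arrays, 18 (0.930%) had a span as wide or wider. The median span of those genes was 0.64. The 7 probe sets of Ccnd2 span 0.55, and those of Cdk4 span 0.09, which 98.2% of the genes matched or exceeded. The positions of the Ccnd3 probe sets on its transcripts were not used here, and which transcript forms each one reads was not tested.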
